A study of Mus musculus with 6 samples.

Results

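The genes described here encode the E proteins, which are the dimer partners of MyoD, and the helix-loop-helix proteins known for holding MyoD in check or for modulating that check. They are Tcf3, Tcf4 and Tcf12 (E proteins), Id1, Id2 and Id3 (Id proteins), Msc, Twist1 and Twist2 (repressors of MyoD) and Hes6. They were chosen by name, and all array probes whose RefSeq accession belongs to them were used. This gave 10 of the 20659 genes named on the array, with 13 probes, and 9 of the 10 were bright enough to be tested. Expression was measured in C2C12 cells, an established mouse myoblast line that forms myotubes when growth serum is replaced by horse serum. The si-SYISL cells were transfected with siRNA against SYISL, a long non-coding RNA, and the si-NC cells with a negative control siRNA. In both groups the transfected cells were then differentiated for 2 days, and total RNA was hybridised to single-colour Agilent arrays labelled with Cy3, 3 arrays per group. The comparison asks how these regulators differ in differentiating muscle cells after SYISL knockdown.

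Basic helix-loop-helix (bHLH) proteins bind DNA as dimers at a short motif called the E-box. MyoD and its relatives bind muscle genes mostly as heterodimers with E proteins, so that the supply of E proteins limits their activity. Id proteins have the dimerisation domain but lack the basic region that contacts DNA. They tie up E proteins in dimers that cannot bind, and their levels are known to decline when myoblasts leave the cell cycle. Msc (also called MyoR) and the Twist proteins can bind DNA with E proteins and oppose MyoD at its target genes, whereas Hes6 is known for counteracting Hes1 and promoting differentiation.

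Because MyoD and the E proteins themselves bind E-boxes, promoters of genes on both sides of the comparison are shown. They are the 250 bases before the annotated start, from RefSeq on the GRCm38.p6 mouse assembly, written 5′ to 3′ on the gene's own strand with E-boxes (CANNTG) in capitals. Tcf3 and Tcf12 encode E proteins and Id3 an Id protein, whose values were lower in both si-SYISL samples, while those of Twist2 and Hes6 were higher. None of these differences passed the adjusted threshold in the test described below.
Tcf3: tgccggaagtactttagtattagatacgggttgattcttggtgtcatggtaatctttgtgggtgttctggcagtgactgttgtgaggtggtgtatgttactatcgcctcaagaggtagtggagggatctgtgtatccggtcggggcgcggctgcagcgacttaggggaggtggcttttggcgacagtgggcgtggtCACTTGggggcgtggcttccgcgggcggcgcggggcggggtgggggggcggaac
Tcf12: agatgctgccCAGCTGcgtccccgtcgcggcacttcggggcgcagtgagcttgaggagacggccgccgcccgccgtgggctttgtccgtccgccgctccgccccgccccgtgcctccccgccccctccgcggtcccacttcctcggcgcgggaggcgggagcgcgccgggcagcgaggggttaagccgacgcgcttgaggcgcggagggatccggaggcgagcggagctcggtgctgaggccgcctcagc
Id3: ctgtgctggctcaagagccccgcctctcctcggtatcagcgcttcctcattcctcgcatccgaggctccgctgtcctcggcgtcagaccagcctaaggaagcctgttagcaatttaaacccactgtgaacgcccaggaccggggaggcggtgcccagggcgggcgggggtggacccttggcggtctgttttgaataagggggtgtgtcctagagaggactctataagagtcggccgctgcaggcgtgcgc
Twist2: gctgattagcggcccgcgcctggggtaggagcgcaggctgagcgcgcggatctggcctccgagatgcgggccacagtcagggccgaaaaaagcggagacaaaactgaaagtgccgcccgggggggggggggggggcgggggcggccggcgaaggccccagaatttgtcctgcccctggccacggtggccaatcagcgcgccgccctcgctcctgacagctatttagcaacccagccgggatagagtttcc
Hes6: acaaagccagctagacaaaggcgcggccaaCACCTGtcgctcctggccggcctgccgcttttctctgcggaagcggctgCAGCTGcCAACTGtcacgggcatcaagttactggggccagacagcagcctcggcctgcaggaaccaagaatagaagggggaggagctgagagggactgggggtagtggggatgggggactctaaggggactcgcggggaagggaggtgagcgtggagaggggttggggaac
These windows lie at chr10:80433636-80433885 on the minus strand for Tcf3, chr9:72111820-72112069 on the minus strand for Tcf12 and chr4:136143572-136143821 on the plus strand for Id3. Those of the higher genes lie at chr1:91801211-91801460 on the plus strand for Twist2 and chr1:91414039-91414288 on the minus strand for Hes6. The Hes6 window holds 3 E-boxes, at 220, 171 and 164 bases before the start, and the middle one reads CAGCTG. The Tcf12 window holds 1 of the same letters, at 240 bases before the start, and the Tcf3 window holds 1 E-box at 54 bases before it. No E-box occurs in the windows of Id3 and Twist2. For Hes6 and Tcf12 the window shown is that of 1 of several annotated starts. The other Hes6 window, from chr1:91413223, holds 1 E-box, of the CAGCTG form. Of the other Tcf12 windows, that from chr9:72111202 holds 1 E-box, not of that form, and that from chr9:71896097 holds none. There were 10 windows for 7 of the genes, counting the alternative starts of Tcf12 and Hes6 separately. Of these windows 6 held an E-box and 4 held the CAGCTG form, among them both Hes6 windows. Among 32851 mouse promoter windows of the same length, 66.2% held an E-box and 13.0% that form. Both motifs read the same on either strand, and each match of the narrower form is counted among the E-boxes too. The motif CACNAG, bound by Hes-type repressors and searched on both strands, occurred in 1 of the 10 windows and in 36.7% of all windows. No window was available for Id1, Msc and Tcf4. A match describes the sequence and does not show that a factor binds there.

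Some properties of the arrays bear on every comparison. Within each group, replicate 1 and replicate 3 were apart by less than the sampling noise between repeated spots of a probe, and were averaged and counted as 1 sample. Their chi-square per probe was 0.153 and 0.226, against 27.6 to 185 in the 13 other pairs of arrays, although they were read in different scans. Only these 2 pairs shared an array position in the file headers. Deviations of spots from the mean of their probe correlated at 0.93 within these pairs, against 0.32 to 0.61 in the others. Whether each pair is 1 array read again was not tested. This left 2 samples per group, the average of replicates 1 and 3 and replicate 2, and nothing in the labels says that they are separate cultures. The limma p-values below therefore rest on the spread between these samples, that of each feature and, through a prior, that of all features. This spread may be technical. The median of all 28555 tested features was 0.16 higher in si-SYISL cells on the log2 scale. The shift was 0.36 among the dimmest 25% of features and 0.08 among the brightest 25%. Differences below are given relative to that median, while p-values come from the difference before it was subtracted. Of all spots, 87.9% to 90.6% were well above background on si-SYISL arrays and 78.2% to 84.6% on si-NC arrays, with local background of 34 to 40.5 and 36 to 50 intensity units. No probe was assigned to SYISL, and the knockdown could not be read from these arrays. In total RNA from a culture, fewer cells of a type and less RNA per cell cannot be told apart. Muscle identity was checked on marker lists, and all 7 myoblast and all 7 myotube markers were well above background on all arrays. Summed normalised intensity of the myotube markers was 125500 and 132100 in the si-SYISL samples, against 79970 and 72300 in the si-NC samples. The sums of the myoblast markers overlapped between groups, at 266200 and 295800 in si-SYISL and 310500 and 254100 in si-NC. Lists for other cell types gave sums of 8052 and 5423 in si-SYISL against 4525 and 4397 in si-NC for leukocytes (4 of 4 genes on the array above background on all arrays), and 406.8 and 582.2 against 102.3 and 68.2 for epithelia (1 of 4). Endothelial sums were 2775 and 2845 in si-SYISL against 2589 and 2390 in si-NC (3 of 4), and osteoblast sums 461 and 466.3 against 404.8 and 415.9 (4 of 4). Adipocyte sums were 3222 and 2984 in si-SYISL against 3749 and 3956 in si-NC (3 of 5, with Lep above background on no array). The part of these markers in the differences below was not tested.

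At the adjusted threshold of 0.05 (limma, Benjamini-Hochberg over all features), none of the 9 genes and 0 of all 28555 features (0%) passed, and the smallest adjusted p over all features was 0.0839. Below an unadjusted p of 0.05, limma placed 2 of the 9 genes lower in si-SYISL, Msc and Tcf3, against 1670 (5.85%) of all features. No gene of the 9 was higher at that level, against 4790 (16.8%) of all features. Both si-SYISL samples lay below both si-NC samples for 5 genes (Tcf3, Tcf12, Id1, Id3 and Msc), and for 15.8% of all features. Both lay above for 3 genes (Tcf4, Twist2 and Hes6), and for 46.3% of all features. The same counts taken after quantile normalisation, which were added after the data were seen, were again 5 and 3, beside 24.1% of all features below and 30.3% above. Relative to the median of all features 7 genes were lower and 2 higher, with a median of -0.36 and a range from -1.51 to 0.22 on the log2 scale. The count of lower genes was 6 with normexp, after quantile normalisation and under some other alternatives, where Tcf4 changed sign. Relative to features of similar brightness Tcf4 was at 0.05, Tcf3 at -0.52, Tcf12 at -0.33, Id1 at -0.53 and Id3 at -0.28. On that measure Twist2 was at 0.32 and Hes6 at 0.29, and Id2 and Msc are given below.

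**Figure D1:**
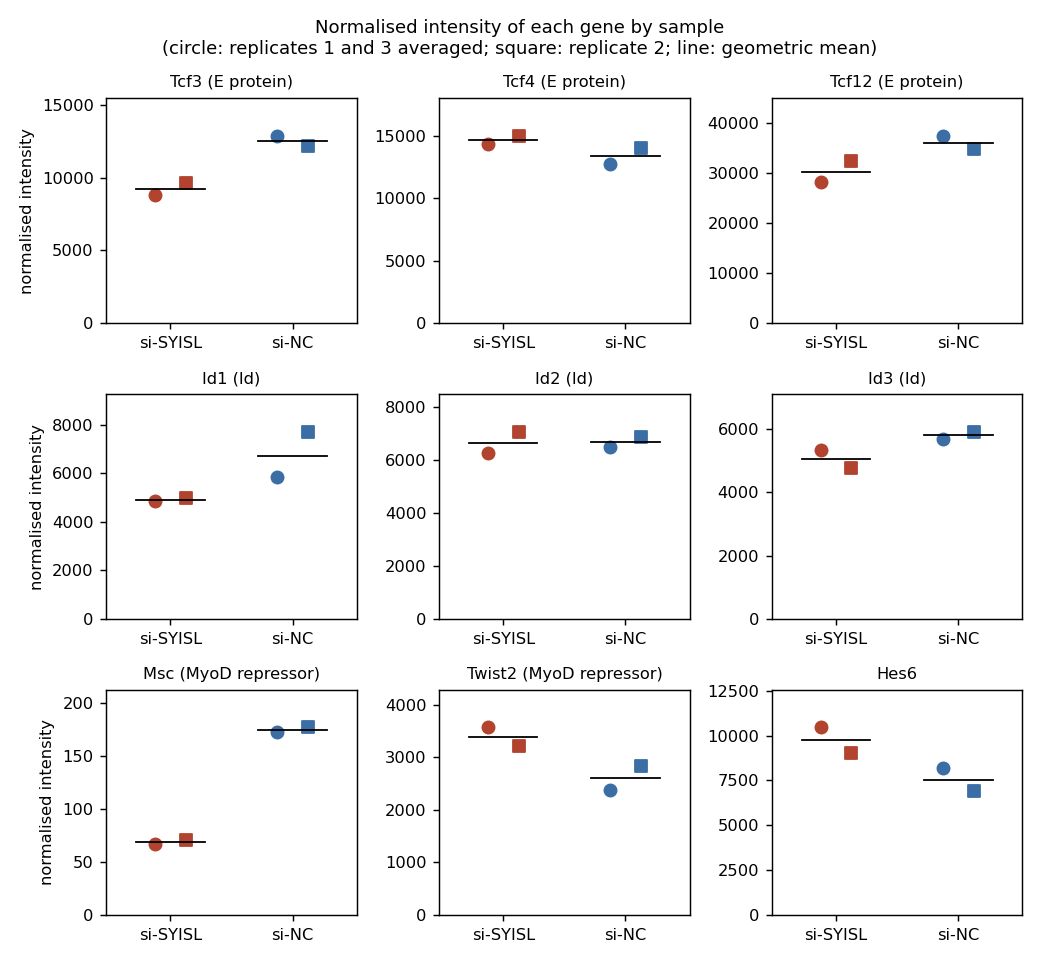
Normalised intensity (linear axes from 0) of the 9 tested genes in the si-SYISL and si-NC samples, with circles for the average of replicates 1 and 3, squares for replicate 2 and lines for geometric means. Msc shows the widest separation, with 66.5 and 70.6 in si-SYISL against 172.5 and 176.6 in si-NC, and Id2 is the gene whose groups overlap.

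Among the E proteins, Tcf3 and Tcf12 were lower in si-SYISL cells while Tcf4 lay near the median of all features. Tcf3 encodes E12 and E47, the classical partners of MyoD. Its normalised intensity, which is the signal scaled to the same 75th percentile on each array, was 8800 and 9629 in the si-SYISL samples, against 12880 and 12170 in the si-NC samples. Both si-SYISL samples were lower, by -0.61 ± 0.12 (log2 difference ± moderated SE from limma, 2 samples per group). Moderated means that limma draws the variance of each feature towards a prior estimated over all features. Limma gave Tcf3 an unadjusted p of 0.0169 and an adjusted p of 0.160, and 5.87% of all features had a lower difference. In the scan that held replicates 1 and 2 the Tcf3 difference was -0.60, and in the scan of replicate 3 it was -0.65. Because replicate 3 counts with replicate 1 as 1 sample, the scan of replicate 3 is no independent check, here and below. A second, dimmer Tcf3 probe, designed on another transcript of the gene, read 390.5 and 402.3 in si-SYISL against 576.2 and 379.9 in si-NC, so that its groups overlapped. Its difference was -0.40 ± 0.23.

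Tcf12 encodes HEB, an E protein with a known role in muscle differentiation. It read 28310 and 32440 in si-SYISL samples, against 37480 and 34720 in si-NC samples. The groups did not overlap, and the difference was -0.41 ± 0.13 (limma, adjusted p = 0.302). The difference in the 2 scans was -0.42 and -0.48. The second Tcf12 probe read 241.1 and 257.1 in si-SYISL against 344.7 and 266.1 in si-NC, again lower in both si-SYISL samples, with a difference of -0.45 ± 0.17.

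Tcf4 encodes E2-2, which shares the E protein bHLH domain and is not the Wnt effector Tcf7l2 that once carried the same name. It read 14350 and 15010 in si-SYISL samples, against 12760 and 14040 in si-NC samples. Both si-SYISL samples were higher in intensity, but once the shift of all features was subtracted the difference was -0.03 ± 0.12 (limma, adjusted p = 0.494). The sign of this value turned under several alternatives, for example to 0.05 after quantile normalisation and 0.08 in the scan of replicate 3. The second Tcf4 probe read 1008 and 1244 in si-SYISL against 1171 and 1242 in si-NC, with a difference of -0.27 ± 0.15 and overlapping groups.

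Ratios of members within an array do not depend on how arrays are scaled, but they can depend on the probes and the background correction. The log2 ratio of Tcf3 to Tcf4, set to a mean of 0 in si-NC, was -0.61 and -0.54 in si-SYISL samples, against 0.11 and -0.11 in si-NC samples. The change was -0.58 ± 0.12, with an exact two-sided permutation p of 0.333, which is the smallest that 2 samples against 2 allow. For ratios ± gives the ordinary SE of the 2 samples per group, not the moderated one. The ratio of Tcf12 to Tcf4 changed by -0.39 ± 0.14, with the same exact p of 0.333. Each ratio uses the brightest probe of a gene. The second, dimmer probes were at -0.40 for Tcf3, -0.45 for Tcf12 and -0.27 for Tcf4. With those probes Tcf3 and Tcf12 thus lay closer to Tcf4. Averaged over the 3 E proteins, centred log2 levels were -0.16 and -0.03 in si-SYISL samples and 0.10 and 0.08 in si-NC samples.

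**Figure D2:**
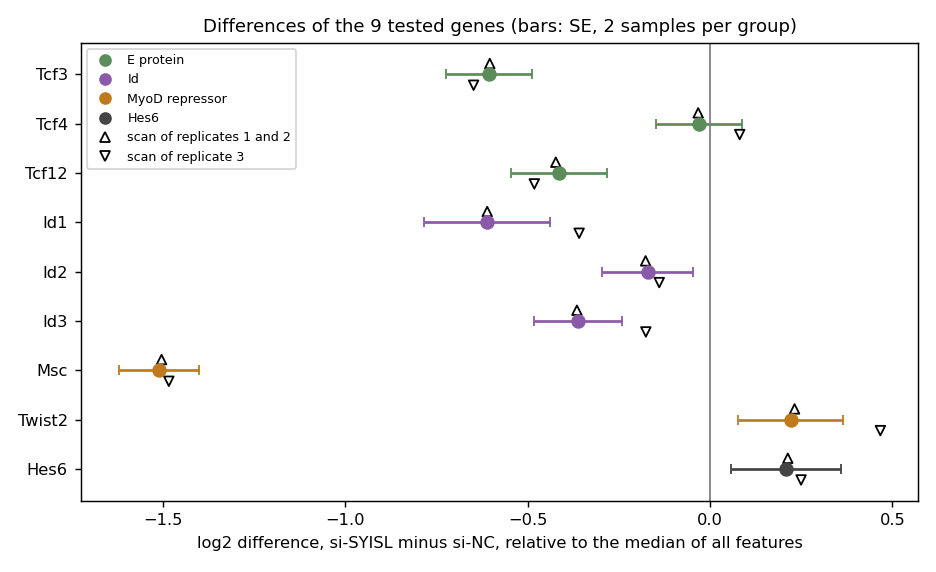
Log2 difference, si-SYISL minus si-NC, of each tested gene relative to the median of all features. Bars give the moderated SE from limma with 2 samples per group, and open triangles the same difference within each scan. Msc lies at -1.51, Tcf3 and Id1 near -0.61, and Twist2 and Hes6 at 0.22 and 0.21.

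The 3 Id genes were all below the median of all features, from -0.61 for Id1 to -0.17 for Id2, and none passed the adjusted threshold in limma. Id1 is induced by BMP signals through Smad proteins and is a classical inhibitor of MyoD. Its intensity was 4860 and 4980 in si-SYISL samples, against 5837 and 7718 in si-NC samples. Both si-SYISL samples were lower and close to each other, while the si-NC samples lay 0.40 apart on the log2 scale. The difference was -0.61 ± 0.17 (limma, adjusted p = 0.229). It was -0.39 without si-NC replicate 2 and -0.82 without si-NC replicates 1 and 3, and within scans it was -0.61 and, for replicate 3, -0.36.

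Id3, which like Id1 responds to BMP, read 5338 and 4767 in si-SYISL samples, against 5675 and 5907 in si-NC samples. Both si-SYISL samples were lower, and the difference was -0.36 ± 0.12 (limma, adjusted p = 0.351). In the scan of replicate 3 it was -0.18, and without si-SYISL replicate 2 it was -0.23. Id2, the family member also known as a partner of the retinoblastoma protein, read 6261 and 7078 in si-SYISL samples, against 6514 and 6878 in si-NC samples. The Id2 groups overlapped, and the difference was -0.17 ± 0.12 relative to the median and near 0 before the subtraction (limma, adjusted p = 0.972). It was -0.04 after quantile normalisation, -0.06 with normexp and -0.09 relative to features of similar brightness. It ran from -0.22 to -0.11 when a sample was left out, with -0.11 both without si-NC replicate 2 and without si-SYISL replicates 1 and 3.

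Id1 and Id2 were set against each other within arrays. Their log2 ratio changed by -0.44 ± 0.18 (exact two-sided permutation p = 0.333, the smallest possible), with -0.37 and -0.51 in si-SYISL samples against -0.16 and 0.16 in si-NC samples. The ratio of Id1 to Id3 changed by -0.25 ± 0.20 and its groups overlapped (exact p = 0.667). Averaged over the 3 Id genes and the 3 E protein genes, the log2 ratio of Id to E protein transcripts was 0.03 and -0.09 in si-SYISL samples, against -0.10 and 0.10 in si-NC samples. That change was -0.03 ± 0.11, the groups overlapped (exact p = 1), and this design could not have shown a difference at 0.05. In all, 7 ratios were computed, and with 2 samples against 2 none could have gone below 0.333, before or after adjustment over the 7.

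Msc showed the lowest value of the 9 genes. It encodes musculin, a bHLH repressor expressed in proliferating muscle precursors that binds E-boxes and opposes MyoD. Its intensity was 66.5 and 70.6 in si-SYISL samples, against 172.5 and 176.6 in si-NC samples. The gap between groups was wide beside the spread within them, and the difference was -1.51 ± 0.11, or 2.85-fold lower relative to the median of all features. In limma Msc had an unadjusted p of 0.000154 and an adjusted p of 0.0839, so it did not pass the adjusted threshold. Msc stood at rank 165 of 28555 when features were ordered from the lowest difference, with 0.574% below it. It was -1.50 in the scan of replicates 1 and 2 and -1.48 in the scan of replicate 3.

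The single Msc probe was dim but well above background on all 6 arrays, with signals of 66.2, 57.0 and 70.5 on the si-SYISL arrays before scaling, against 168.3 or more on each si-NC array. Relative to features of similar brightness, whose median shifted upward by 0.17, Msc was at -1.52. Background correction by normexp, which adds a constant of 50 to each spot, gave a smaller difference of -0.90 (limma, adjusted p = 0.0890). Testing only features above background on all 6 arrays, which leaves fewer features, gave Msc an adjusted p of 0.0490. Leaving out the si-NC sample of replicates 1 and 3 gave an adjusted p of 0.0231, and across the alternatives that tested it the adjusted p of Msc ran from 0.000422 to 0.289. The lowest of these counts replicates 1 and 3 as separate samples.

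Twist2 lay on the other side of the median from Msc. Twist2, also called Dermo1, can dimerise with E proteins and repress MyoD activity. It read 3565 and 3217 in si-SYISL samples, against 2379 and 2832 in si-NC samples. Both si-SYISL samples were higher, and the difference was 0.22 ± 0.14 relative to the median, with 76.8% of features lower (limma, adjusted p = 0.224). It was 0.23 in the first scan, 0.47 in the scan of replicate 3 and between 0.09 and 0.37 when a sample was left out. The log2 ratio of Msc to Twist2 was -1.85 and -1.61 in si-SYISL samples, against 0.11 and -0.11 in si-NC samples. That ratio changed by -1.73 ± 0.16 (exact two-sided permutation p = 0.333, the smallest possible). With normexp the differences of Msc and Twist2 were -0.90 and 0.28, closer to each other than as reported. Twist1, the best known member of the family and an inhibitor of muscle differentiation, was not well above background on any of the 6 arrays. Its signals of 13.0, 16.6 and 13.6 on si-SYISL arrays and 12.1, 7.66 and 8.77 on si-NC arrays give no fold.

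Hes6 stood on the higher side. It read 10460 and 9060 in si-SYISL samples, against 8183 and 6923 in si-NC samples. The groups did not overlap, but replicates of a group differed by 0.21 and 0.24 on the log2 scale. The difference was 0.21 ± 0.15 relative to the median (limma, adjusted p = 0.242), with 0.21 in the first scan and 0.25 in the scan of replicate 3. Leaving out a sample moved it between 0.07 and 0.36.

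**Figure D3:**
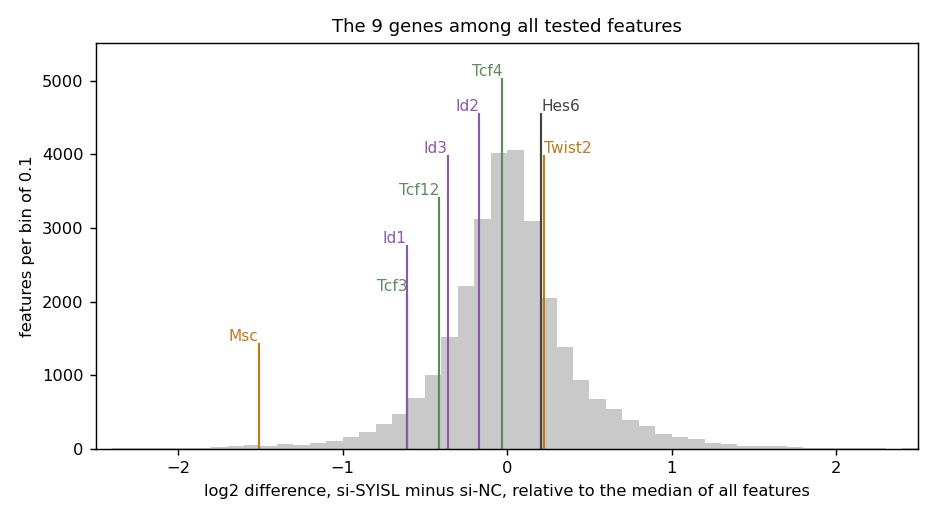
Histogram of the log2 difference, si-SYISL minus si-NC, relative to the median over the 28555 tested features (features per bin of 0.1), with a labelled line for each of the 9 genes; line height has no meaning. Msc lies in the lower tail with 0.574% of features below it, and Twist2 and Hes6 lie above the centre with 76.8% and 75.8% below them.

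The partners that these proteins act on were described in the same fit. Of the 4 MyoD family genes, the si-SYISL pair was lower for 1, Myod1, and higher for 0, beside 15.8% and 46.3% of all features. Myod1 read 2813 and 3242 in si-SYISL samples, against 4578 and 4670 in si-NC samples. Its difference was -0.78 ± 0.13 (limma, adjusted p = 0.131). Myog, the myogenin gene that drives terminal differentiation, read 8232 and 10730 in si-SYISL and 8832 and 8175 in si-NC, with a difference of -0.02 ± 0.17 whose sign turned under quantile normalisation. Myf5 was at -0.29 ± 0.13 and Myf6 at -0.15 ± 0.13, both with overlapping groups (limma, adjusted p = 0.540 and 0.952). These values moved with single samples, Myf5 to -0.17 without si-NC replicate 2 and Myf6 to -0.06 without si-NC replicates 1 and 3. With normexp they were -0.12 and -0.04, and the median of the 4 genes was -0.08, against -0.22 as reported. Msc was also lower relative to Myod1 within arrays. Their log2 ratio, set to a mean of 0 in si-NC, was -0.68 and -0.79 in si-SYISL samples, against 0.00 in both si-NC samples. That change was -0.73 ± 0.06 (exact two-sided permutation p = 0.333, the smallest possible). It depends on the background correction of the dim Msc probe. With normexp the differences of Msc and Myod1 were -0.90 and -0.72, much closer to each other.

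Other bHLH factors were spread on both sides of the median. Of 28 genes on the list 22 were tested, and their median was 0.02. In limma 3 were lower and 3 higher below an unadjusted p of 0.05, beside 5.85% and 16.8% of all features. The count below an adjusted 0.05 was 0. The median was -0.06 after quantile normalisation and -0.05 without si-SYISL replicate 2, so its sign is not settled. The si-SYISL pair was lower for 5 (22.7%) and higher for 11 (50%), beside 15.8% and 46.3% of all features. On all 6 arrays 18 of the 22 were above background, and these held 2 of the 3 lower and 2 of the 3 higher genes by unadjusted p in limma. For these 18 the si-SYISL pair was lower for 3 and higher for 9. The smallest p-values of the whole list were those of Hey2 and Hey1, Notch-responsive repressors. Hey1 read 1053 and 1252 in si-SYISL samples, against 1891 and 2264 in si-NC samples, a difference of -1.01 ± 0.16 (limma, adjusted p = 0.127). Hey2 was dim, at 16.1 and 20.3 in si-SYISL against 59.2 and 39.6 in si-NC, and was above background on 2 of the 3 si-SYISL arrays. It entered the test through the si-NC arrays alone, where it is brighter, so its difference of -1.58 ± 0.25 (limma, adjusted p = 0.123) is given as a description. With normexp it was -0.47.

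Other inhibitors of MyoD had a median of -0.20 over 19 tested of 20 genes, with 2 lower and 2 higher below an unadjusted p of 0.05 in limma and 0 adjusted. Over all features 5.85% were lower and 16.8% higher at that level. Of these genes the si-SYISL pair was lower for 7 (36.8%) and higher for 5 (26.3%), beside 15.8% and 46.3% of all features. Among the 18 genes above background on all 6 arrays these counts were 7 and 4. Mdfi, which encodes I-mfa, a protein that retains MyoD family members in the cytoplasm, read 40.3 and 41.5 in si-SYISL, against 22.6 and 26.9 in si-NC, where 1 of 3 arrays was above background. It is 1 of the 2 higher genes and entered the test through the si-SYISL arrays alone, where it is brighter, so its difference of 0.57 ± 0.14 (limma, adjusted p = 0.1252) is given as a description. It was 0.24 with normexp and 0.34 after quantile normalisation. Sox9, a cartilage regulator known to repress muscle genes, read 2011 and 2563 in si-SYISL, against 3715 and 4436 in si-NC, a difference of -1.001 ± 0.18 (limma, adjusted p = 0.137).

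A list of BMP signalling genes and of other regulators of Id transcription had a median of -0.04 over 23 tested of 25, and of 0.00 without si-SYISL replicate 2. In limma 1 was lower and 3 higher below an unadjusted p of 0.05, beside 5.85% and 16.8% of all features, with 0 adjusted. The lower gene was Egr1, an immediate early transcription factor that is no part of the BMP pathway, named after its values were seen, at -0.69 ± 0.11. In this list the si-SYISL pair was lower for 5 (21.7%) and higher for 12 (52.2%), beside 15.8% and 46.3% of all features. Bmp2, a ligand, read 34.5 and 33.6 in si-SYISL, against 18.6 and 19.4 in si-NC, where it was not well above background on any array. With the scaling used here it was at least 1.52-fold higher, set against the dimmest signals called above background (limma, adjusted p = 0.102). This bound does not hold for other processing. The Bmp2 difference relative to the median was 0.68 as reported, 0.17 with normexp and 0.41 after quantile normalisation. Bmp2 is 1 of the 3 higher genes and entered the test through the si-SYISL arrays alone, where it is brighter. Its values are therefore a description. Fst encodes follistatin, a secreted antagonist of activin, myostatin and some BMPs. It read 3086 and 2861 in si-SYISL, against 1980 and 1660 in si-NC, a difference of 0.55 ± 0.14 (limma, adjusted p = 0.128). Among the Id genes, which this pathway is known to induce, Id1 and Id3 were lower in both si-SYISL samples and Id2 overlapped between groups.

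MyoD coactivators had a median of -0.03 over all 17 genes. Below an unadjusted p of 0.05 in limma 2 were lower and 0 higher, beside 5.85% and 16.8% of all features, with 0 adjusted. Without overlap, si-SYISL was lower for 7 (41.2%) and higher for 7, beside 15.8% and 46.3% of all features. That median was -0.23 without si-SYISL replicates 1 and 3 and -0.21 without si-NC replicate 2. Ep300 encodes the acetyltransferase p300, which E proteins also recruit. It read 2089 and 2617 in si-SYISL, against 3263 and 3672 in si-NC, a difference of -0.73 ± 0.16 (limma, adjusted p = 0.171). Six4, a homeodomain factor of the muscle programme, was at -0.58 ± 0.12, with 3792 and 4217 in si-SYISL against 5148 and 5570 in si-NC (limma, adjusted p = 0.173).

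**Figure D4:**
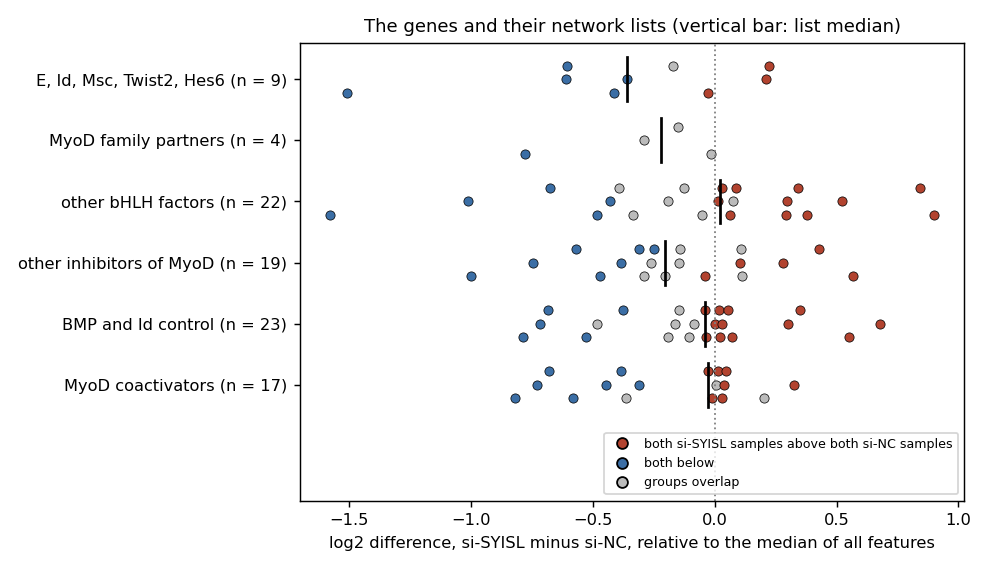
Log2 difference, si-SYISL minus si-NC, relative to the median of all features, for the tested genes of each list, coloured by whether the si-SYISL pair lay above the si-NC pair, below it or overlapped it, with vertical bars for list medians. The 9 genes have a median of -0.36, the 4 MyoD family genes -0.22 (-0.08 with normexp) and the other bHLH factors 0.02 (-0.06 after quantile normalisation).

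The genes whose levels over the 4 samples lay closest to Msc, by Euclidean distance between log2 levels centred on each gene's mean, were Ppp2r2b, Nefm, Adgrd1, Clca3b and Mmp10. Their distances were between 0.0946 and 0.149. Ppp2r2b, a regulatory subunit of protein phosphatase 2A, read 950.7 and 1056 in si-SYISL, against 2447 and 2714 in si-NC, with a difference of -1.53 ± 0.13 (limma, adjusted p = 0.0847). Nefm, a neurofilament subunit, was at -1.45 ± 0.13, with 121.9 and 141.2 in si-SYISL against 315.3 and 324.6 in si-NC. Adgrd1, an adhesion G protein-coupled receptor, was at -1.46 ± 0.11, and the matrix metalloprotease gene Mmp10 at -1.45 ± 0.12. These genes were selected by their likeness, and the values are a description. The summed neural markers, a list that does not hold Nefm, were 11520 and 12070 in si-SYISL against 16260 and 17620 in si-NC, and all 5 were above background on all arrays. Their part in the Msc difference was not tested.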

How the data were processed

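RNA of C2C12 cells was measured on 6 single-colour Agilent arrays, 3 per group. The deposited scanner files hold intensity, background-subtracted and detrended within each array but not normalised between arrays, per the file headers. They were written by Feature Extraction 11.0.1.1 per the file headers, and the submitters' processing notes give Agilent Feature Extraction 10.5.1.1. Flags for background, saturation and outliers (unit other) are as deposited. The deposited series matrix holds log2 values with nearly equal quantiles, taken as quantile-normalised by the authors and used only as an alternative.

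In R 4.3.3, the 75th percentile of the 43020 spots that are not controls was subtracted from each array's log2 signals. Outlier spots were left out and spots of a probe averaged. Of 39429 probes, 27234 were named through RefSeq accessions. Probes entered the test if flagged well above background throughout the 3 arrays of either group, and the brightest kept probe stood for its gene, which left 28555 features. Normalised intensity is the scaled level times the geometric mean of the 75th percentiles, and replicates 1 and 3 of each group count as 1 sample. Groups were compared with limma 3.58.1 (lmFit, eBayes, 2 residual and 2.37 prior degrees of freedom). Probe positions belong to an older assembly and are not given. Replicate numbers did not pair the samples: deviations of same-numbered samples correlated at -0.03. The test was checked on simulated independent values with changes larger than those of the genes described. This does not show its power for smaller changes or how it behaves with technical replicates. The number of arrays limits the precision.

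The genes, the lists and the marker genes were chosen with earlier results of these data known. Named are all 10 genes, the 4 MyoD family genes, the 2 genes of smallest p in each other list and the 5 genes most like Msc. The alternatives changed background correction, normalisation, filter, probe choice, variance model, weights, batch and samples.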

Additional observations from a re-analysis of the deposited data

How the results depend on the processing

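The count of all features below an adjusted p of 0.05 in limma was 0 as reported. It became 183 with normexp, 1 with a common median, 46 among features above background on all 6 arrays, 903 with a variance trend, 6499 with the scan as a block on 6 arrays, 9762 with 6 arrays as 6 samples, and 0 to 1372 when a sample was left out (1372 without si-NC replicates 1 and 3, 276 without si-NC replicate 2). Both fits on 6 arrays count replicates 1 and 3 as separate samples. For the 9 genes these counts were 0 as reported, 1 (Msc) with the stricter filter, 1 (Msc, adjusted p = 0.0211) with the variance trend, 3 with the scan block, 5 with 6 samples and 0 to 1 when a sample was left out. For the genes of the network lists they were 0 as reported, 4 with the variance trend, 18 with the scan block, 30 with 6 samples and 0 to 2 when a sample was left out. The cause was not tested beyond what each setting changes by construction. Tcf4 turned to 0.0017 with normexp, 0.048 after quantile normalisation, 0.059 in the series matrix, 0.0012 with the stricter filter, 0.0020 with the scan block and with 6 samples, 0.053 against features of similar brightness and 0.081 in the scan of replicate 3, and ran from -0.11 to 0.062 when a sample was left out. Myog turned to 0.092 after quantile normalisation, 0.091 in the series matrix and 0.014 with the stricter filter, and ran from -0.16 to 0.14 when a sample was left out. None of the other 8 tested genes or the other named list genes changed sign under any alternative. With the replicate number as a block the count was 0, the Msc difference stayed at -1.51 with an adjusted p of 0.189, and no call changed. The comparisons by brightness and within the scan of replicate 3 and the overlap counts after quantile normalisation were added after the data were seen. Dim probes limit what can be said of Twist1, Hey2, Mdfi and Bmp2.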
